A study of Homo sapiens with 2 samples.

Results

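One-directional starts of protein-coding genes in HUDEP-2 cells were called transcription start positions that had no called start on the opposite strand nearby. The wild-type line, an immortalised line of human erythroid progenitors, was profiled by PRO-cap, which runs nuclei on with biotin-labelled nucleotides and sequences nascent RNA from its 5' end. The series held 1 group with 2 biological replicates, and its labels name no treatment, so that no group was set against another. The deposited lists of calls name no replicate and give no read count, so that depth and the spread between replicates are unknown. For each protein-coding gene, the call nearest to either outer end of the gene was taken if it lay within 500 bp and pointed into the gene. A start was one-directional when no call of the opposite strand lay within 1000 bp on either side. This held for 2074 of 8102 such starts (25.6%, 95% Wilson interval 24.7 to 26.6), which is 7.88% of all 26332 calls on the autosomes and chromosome X. The remaining 6028 starts had an opposite-strand call within 1000 bp and are called two-directional below. Intervals of shares are 95% Wilson intervals, those of differences 95% Newcombe intervals, and both cover counting error only.

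Promoters of human genes commonly start transcription both ways, giving a gene's RNA and a short, unstable RNA that runs upstream and away from it. Each direction uses its own core promoter, the stretch that positions RNA polymerase II, and general elements include the TATA box, bound by TBP, and the initiator, a pyrimidine followed by a purine at the first base. PRO-cap reads nascent RNA, so that it can detect the unstable partner before it decays. In erythroid progenitors the genes of haem synthesis, iron handling and the red cell surface are known for high transcription.

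A start of either kind was called for 8207 of 19821 protein-coding genes (41.4%). It was called for 12 of 13 genes of haem synthesis, 17 of 26 erythroid transcription factors and 4 of 10 globin genes, the last a share close to that of all genes. The called globin genes were HBB, HBD, HBM and HBQ1, and the others of the list had no called start. How multi-mapped reads were handled is unknown, so that the globin count is no measure of globin transcription. The haem count includes PPOX, whose call lay 183 bp inside its 3' end and ran against the gene. Among markers of other cell types the number of called genes was 2 of 15 for megakaryocytes and 1 of 16 for granulocytes and monocytes. It was 1 of 17 for lymphoid cells, 1 of 14 for hepatocytes, 1 of 13 for neurons and 0 of 14 for muscle and stroma. The threshold for a call is unknown. An opposite-strand start below it cannot be told apart from none, and whether this sets the one-directional group was not tested.

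The sequences around the calls of erythroid members are given as examples from the group. They were read from the RefSeq promoter table (GRCh38.p14, the build of the calls) for members in the globin, haem, iron, erythroid transcription factor and other erythroid lists. Each runs 5' to 3' along the gene from 45 bases before the called base to 15 bases after it, and the single capital is the called base. No TATAA lay in the window from 40 to 20 bases before the call in these 9 members. HBD was called 71 bp outside its annotated end, so that its printed stretch does not reach that end.
ACO1, chr9:32384598-32384658, forward strand: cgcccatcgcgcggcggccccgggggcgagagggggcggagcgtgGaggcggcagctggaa
ALAD, chr9:113401268-113401328, reverse strand: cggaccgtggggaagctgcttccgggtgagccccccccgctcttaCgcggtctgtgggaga
ALAS2, chrX:55030963-55031023, reverse strand: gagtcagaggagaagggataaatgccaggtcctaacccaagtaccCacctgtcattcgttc
FTL, chr19:48965261-48965321, forward strand: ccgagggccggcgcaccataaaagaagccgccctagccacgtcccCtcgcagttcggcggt
GCLM, chr1:93909416-93909476, reverse strand: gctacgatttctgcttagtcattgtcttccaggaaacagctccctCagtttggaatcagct
HBD, chr11:5234539-5234599, reverse strand: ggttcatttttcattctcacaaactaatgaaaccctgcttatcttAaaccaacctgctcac
KIT, chr4:54657913-54657973, forward strand: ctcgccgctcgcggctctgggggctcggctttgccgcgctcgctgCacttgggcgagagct
PRDX2, chr19:12801785-12801845, reverse strand: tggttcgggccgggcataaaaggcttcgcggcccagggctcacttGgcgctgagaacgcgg
TRIM58, chr1:247857143-247857203, forward strand: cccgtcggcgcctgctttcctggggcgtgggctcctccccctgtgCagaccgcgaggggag

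A further 4 members, chosen after their values were seen because they carry TATAA in that window, are shown for contrast. The box and the called base are in capitals.
AQP1, chr7:30911807-30911867, forward strand: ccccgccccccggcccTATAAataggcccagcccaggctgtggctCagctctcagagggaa
FOS, chr14:75278782-75278842, forward strand: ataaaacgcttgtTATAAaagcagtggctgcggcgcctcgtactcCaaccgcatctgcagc
H1-4, chr6:26156282-26156342, forward strand: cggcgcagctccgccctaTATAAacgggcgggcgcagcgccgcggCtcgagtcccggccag
TPI1, chr12:6867485-6867545, forward strand: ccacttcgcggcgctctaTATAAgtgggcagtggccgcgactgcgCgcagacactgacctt
The first base of the box lay 29 bases before the call at AQP1, which encodes a water channel of the red cell, and 32 bases before it at FOS, an immediate early transcription factor. It lay 27 bases before the call both at H1-4, a linker histone, and at TPI1, the glycolytic triosephosphate isomerase.

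The next 3 sequences are two-directional starts of the same erythroid lists, the first by alphabet, with the called base in capitals.
ABCB10, chr1:229558693-229558753, reverse strand: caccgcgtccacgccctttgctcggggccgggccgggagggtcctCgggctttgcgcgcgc
BLVRB, chr19:40465731-40465791, reverse strand: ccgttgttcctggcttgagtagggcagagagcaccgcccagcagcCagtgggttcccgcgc
BPGM, chr7:134646809-134646869, forward strand: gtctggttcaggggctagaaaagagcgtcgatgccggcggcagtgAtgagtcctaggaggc
Their nearest opposite-strand calls lay 433 bp away at ABCB10, a mitochondrial transporter needed for haem synthesis, 360 bp at BLVRB, biliverdin reductase B, and 291 bp at BPGM, which makes 2,3-bisphosphoglycerate. All 3 of these opposite calls were upstream.

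Most one-directional starts lay far beyond the limit from any opposite-strand call. Among one-directional starts the median was 41627.5 bp (quartiles 13471.5 and 104234 bp), and 1652 of 2074 (79.7%) had none within 10 kb. The nearest call was upstream in 1089 of the 2074 (52.5%, 50.4 to 54.6). Among two-directional starts the median was 197 bp (quartiles 128 and 309), and that call lay upstream in 5063 of 6028 (84.0%). The distances themselves follow from the rule and were not tested. The nearest call lay at 1001 to 2000 bp for 132 one-directional starts, and at 501 to 1000 bp for 504 two-directional ones. Those just inside the one-directional group were XKR5 at 1004 bp, UBAC1 at 1006 bp and TGFB1I1 at 1011 bp. Those just outside it were EPS15 at 998 bp and FANCE and CEBPB at 1000 bp, all with the opposite call downstream. With a limit of 500 bp the one-directional share was 31.8%, and with 2000 bp it was 24.0%.

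**Figure D1:**
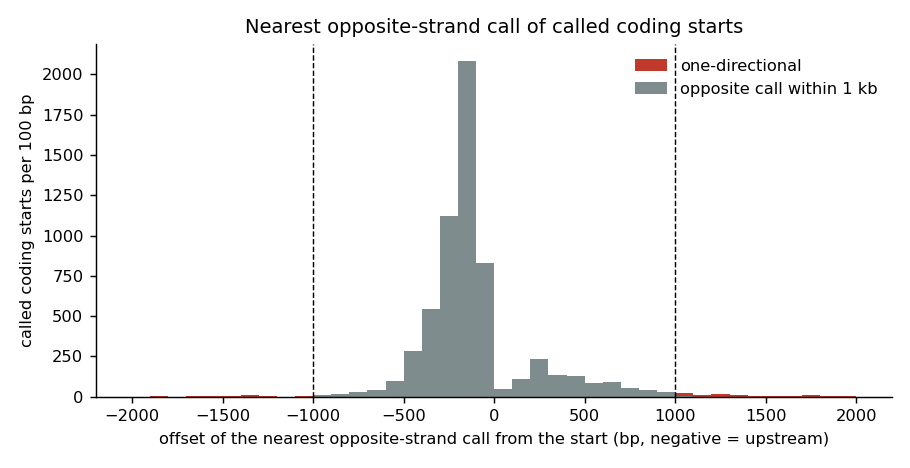
Signed offset of the nearest opposite-strand call from each called coding start, in bins of 100 bp from -2000 to 2000 bp, with one-directional starts in red and two-directional starts in grey and dashed lines at the 1000 bp limit. Two-directional starts pile up at 101 to 200 bp upstream, where 2084 of them lie, and the 1942 one-directional starts whose nearest call is over 2000 bp away are outside the axis.

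The farthest opposite calls were those of LOC102724023 on chromosome 21, at 9255133 bp, and of SMARCAD1 and PDLIM5, both on chromosome 4, at 3935816 and 3691500 bp. GHITM followed at 2539925 bp and CCDC50 at 2263631 bp. SMARCAD1 encodes a chromatin remodeller and PDLIM5 a cytoskeletal adaptor. Their nearest opposite call is the same one, so that their values are not separate measurements. The called start of SMARCAD1 lay 17 bp inside the gene and that of PDLIM5 1 base outside it.

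One-directional starts lay close to the annotated ends. The call was within 10 bp of the end in 1043 of 2074 one-directional starts (50.3%, 48.1 to 52.4) and in 2694 of 6028 two-directional ones (44.7%, 43.4 to 46.0). The difference of 5.60 percentage points (3.11 to 8.08) passed Fisher's exact test (two-sided, adjusted p = 0.000112 over 20 features). The most frequent position within 20 bp of the end was 1 base outside the gene, at 426 one-directional starts (20.5%) and 950 two-directional ones (15.8%). The end itself came next, at 211 (10.2%) and 577 (9.57%). Where the promoter table lists the gene's strand, 1681 of 1704 one-directional starts (98.7%, 98.0 to 99.1) ran along the gene and 23 ran against it from its 3' end, among them TGFB1I1. For two-directional starts 5014 of 5090 (98.5%) ran along the gene.

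**Figure D2:**
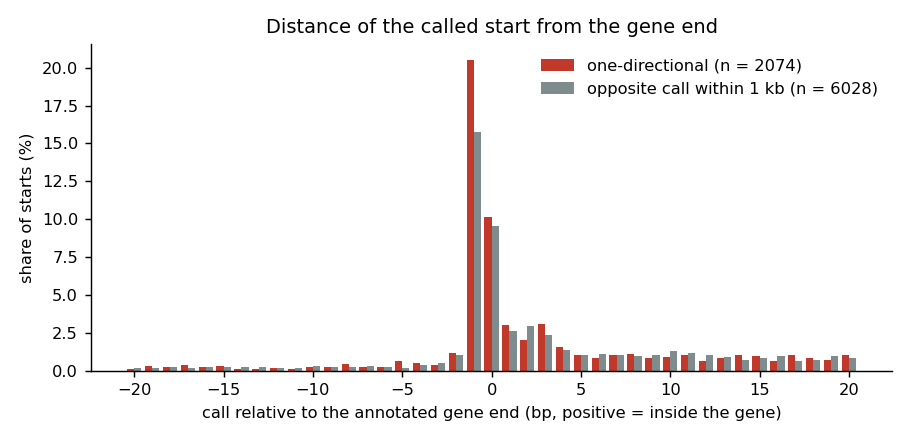
Share of starts (percent) at each position from 20 bp outside to 20 bp inside the annotated gene end, with one-directional starts in red on the left of each pair and two-directional starts in grey. Both groups peak 1 base outside the end, at 20.5% and 15.8%.

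The bases at the call showed that the called position and the first base of the annotated gene were often 1 base apart. Of one-directional starts called 1 base outside the end, 318 of 321 with sequence (99.1%, 97.3 to 99.7) had C at the called base. Of those called on the end itself, 149 of 166 (89.8%, 84.2 to 93.5) had A or G there. ALAS2, GCLM, AQP1 and FOS are examples of the first kind, with a C in capitals above followed by an a, and PRDX2 and ACO1, with a G in capitals, of the second. Read as the base before and the called base, a pyrimidine and a purine stood at 394 of 1376 one-directional starts (28.6%) and 1214 of 3909 two-directional ones (31.1%). This difference of -2.42 points (-5.17 to 0.411) did not pass Fisher's exact test (two-sided, adjusted p = 0.146). Read 1 base further downstream, the pair stood at 676 of 1371 one-directional starts (49.3%) and 1797 of 3890 two-directional ones (46.2%), and in either register at 78.0% and 77.2%. The second register was added after the bases were seen (difference 3.11 points, adjusted p = 0.0835, Fisher's exact test). In it the pair was CA at 534 one-directional starts (38.9%), whereas CA ended on the called base at 19 (1.39%). Positions of single calls are given as deposited. Whether the peak 1 base outside the gene comes from a coordinate offset of some calls was not tested.

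Promoters of one-directional starts were somewhat less often rich in CpG, the dinucleotide whose density marks CpG islands. Sequence covering the called base was listed for 1377 of the 2074 one-directional starts and 3909 of the 6028 two-directional ones, as 250 bases before to 50 after the RefSeq start. An observed over expected CpG ratio of at least 0.6 with at least 55% GC held for 1141 one-directional promoters (82.9%, 80.8 to 84.8) and 3410 two-directional ones (87.2%, 86.2 to 88.2). The difference was -4.37 points (-6.69 to -2.19; Fisher's exact test, two-sided, adjusted p = 0.000529). Over all 15812 protein-coding promoters in the table the share was 59.8%. The median ratio was 0.850 in one-directional and 0.893 in two-directional promoters, with median GC contents of 66% and 65.7%. The same sign and call held under each alternative tried for this feature.

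Of 13 short motifs searched on both strands of the whole window, 2 were more and 3 less frequent in one-directional promoters. The GC box GGGCGG, bound by SP and KLF factors, was in 1079 of 1377 one-directional promoters (78.4%) and 2896 of 3909 two-directional ones (74.1%; difference 4.27 points, 1.65 to 6.79, Fisher's exact test, adjusted p = 0.00530). TATAA anywhere in the window was in 11.9% of one-directional and 9.57% of two-directional promoters (2.34 points, 0.470 to 4.36, exact test, adjusted p = 0.0379). Over all protein-coding promoters these letters stood in 58.5% and 16.7%. The ETS site CCGGAAG, bound by factors such as GABPA, was in 306 one-directional promoters (22.2%) and 1056 two-directional ones (27.0%; -4.79 points, -7.34 to -2.14, adjusted p = 0.00222, exact test). The NRF1 letters GCATGCGC were in 5.74% and 7.70% (-1.96 points, -3.38 to -0.391, exact test, adjusted p = 0.0379), and the palindrome TCTCGCGA, bound by BANP, in 2.03% and 3.84% (-1.80 points, -2.70 to -0.754, adjusted p = 0.00491). These 3 stood in 14.2%, 4.26% and 1.74% of all protein-coding promoters. None of the 5 motifs passed when the window was shortened to 100 bases before and 50 after the start, with adjusted p = 0.110 for the GC box, 0.0829 for TATAA, 0.0572 for the ETS site, 0.403 for NRF1 and 0.0664 for the palindrome (exact tests). TATAA also missed the threshold with a 200 bp limit at the gene end (exact test, adjusted p = 0.0636) and with a 2000 bp limit for opposite calls (0.137), as did NRF1 with 2000 bp (0.0546).

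None of the 3 erythroid motifs passed the test. The GATA1 letters AGATAA were in 68 one-directional promoters (4.94%) and 142 two-directional ones (3.63%; 1.31 points, 0.101 to 2.69, adjusted p = 0.0819, Fisher's exact test), against 7.55% of all protein-coding promoters. The KLF1 letters CCACACCC were in 2.69% and 2.53% (0.154 points, -0.755 to 1.25, exact test, adjusted p = 0.807) and the NF-E2 letters TGAGTCA in 2.61% and 2.02% (0.593 points, -0.278 to 1.65, adjusted p = 0.264). All promoters held these in 3.38% and 3.67%. Promoters of HBD and ALAS2 held both AGATAA and TGAGTCA, and that of TRIM58 held CCACACCC. CCAAT, bound by NF-Y, was the second most frequent motif after the GC box, in 565 one-directional and 1563 two-directional promoters (1.05 points, -1.95 to 4.08, exact test, adjusted p = 0.558), against 36.3% of all promoters. The YY1 letters AAGATGGC were in 7.12% and 8.80% (-1.68 points, -3.23 to 0.0231, exact test, adjusted p = 0.0904; 0.0276 with a 500 bp limit for opposite calls) and the ZNF143 letters ACTACAATT in 1.23% and 0.665% (0.569 points, 0.0141 to 1.33, adjusted p = 0.0904). The cAMP response element TGACGTCA was in 3.85% and 4.37% (-0.526 points, -1.65 to 0.771, exact test, adjusted p = 0.514) and the E-box CACGTG in 163 and 469 of them (-0.161 points, -2.08 to 1.90, adjusted p = 0.923). All protein-coding promoters held these 4 in 3.91%, 0.462%, 2.59% and 8.87%. No searched motif contains another whole on either strand, although neighbouring motifs can share end bases. A match is not a bound site.

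**Figure D3:**
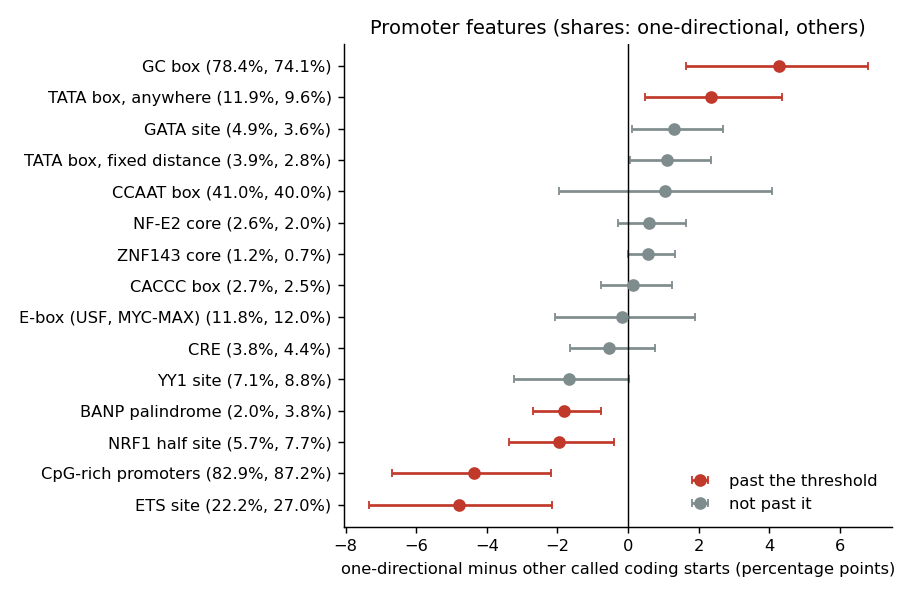
Difference in the share of promoters with each feature, one-directional minus two-directional, in percentage points with 95% intervals, red where the adjusted p was under 0.05 and grey otherwise. The shares in one-directional and then two-directional promoters stand in brackets, and the differences run from -4.79 points for the ETS site to 4.27 points for the GC box.

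A TATA box at the distance at which TBP places the polymerase was rare in both groups. TATAA began 40 to 20 bases before the call at 53 of 1371 one-directional starts (3.87%, 2.97 to 5.02) and at 107 of 3887 two-directional ones (2.75%, 2.28 to 3.32). The difference of 1.11 points (0.0530 to 2.36) did not pass the threshold (Fisher's exact test, adjusted p = 0.0881). With a limit of 500 bp for opposite calls it was 1.64 points and passed (exact test, adjusted p = 0.00446), and with 2000 bp it was 0.648 points (adjusted p = 0.330). With the longer letters TATAAA it was 0.636 points (exact test, adjusted p = 0.190). Of the 53 members, 38 were CpG-rich, 50 were called within 10 bp of the end and 7 were replication-dependent histone genes, of 10 such histone members with sequence. Among all genes named as histones, the box stood at 9 of 12 one-directional starts (75%) and 30 of 42 two-directional ones (71.4%). Without any gene named as a histone, the box stood at 44 of 1359 one-directional starts (3.24%) and 77 of 3845 two-directional ones. In the same window over all protein-coding promoters, counted from the annotated start, the share was 5.65%.

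The two-directional group was itself mixed, and in CpG content the one-directional starts lay between its classes. CpG-rich promoters made up 81.4% of one-directional starts where the nearest opposite call was at 1 to 10 kb, 82.5% at 10 to 50 kb and 83.7% beyond 50 kb. In two-directional starts the share was 89.5% (88.3 to 90.6) with the nearest opposite call 0 to 300 bp upstream, 85.3% (82.3 to 87.9) with it over 300 and up to 1000 bp upstream and 77.8% (74.0 to 81.1) with it downstream. The ETS site stood at 17.4% (13.3 to 22.5), 24.3% (20.7 to 28.3) and 22.6% (19.5 to 26.1) in those one-directional classes. It stood at 31.2% (29.5 to 33.0), 17.0% (14.2 to 20.2) and 16.6% (13.7 to 19.97) in the two-directional ones. Of the 3 two-directional classes, the one with a close upstream call alone had a share above the 22.2% of all one-directional promoters. The same held for the NRF1 letters, at 9.07%, 4.74% and 3.95% in the two-directional classes, against 5.74% of all one-directional promoters. The one-directional classes had them at 4.92%, 8.23% and 4.15%. The palindrome TCTCGCGA stood at 4.56%, 2.94% and 1.13% in the two-directional classes, against 2.03% of all one-directional promoters. The GC box stood at 76.5%, 80.5% and 77.5% in the one-directional classes and at 73.5%, 77.5% and 73.4% in the two-directional ones. Its share with the opposite call over 300 and up to 1000 bp upstream thus lay within the range of the one-directional classes. The TATA box at the fixed distance was at 7.95% (5.26 to 11.9) of one-directional starts with the nearest opposite call at 1 to 10 kb, against 2.89% in each of the other 2 one-directional classes. It was at 2.47%, 2.78% and 4.22% in the two-directional classes, in the order above. Of the 21 boxes at 1 to 10 kb, 8 were at histone genes, and without histone genes the share there was 5.12% (3.02 to 8.56). Without histone genes it was 2.89% and 2.74% in the other one-directional classes and 1.72%, 2.64% and 2.75% in the two-directional ones. Histone genes were set aside after the values were seen. The classes were not tested against each other.

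**Figure D4:**
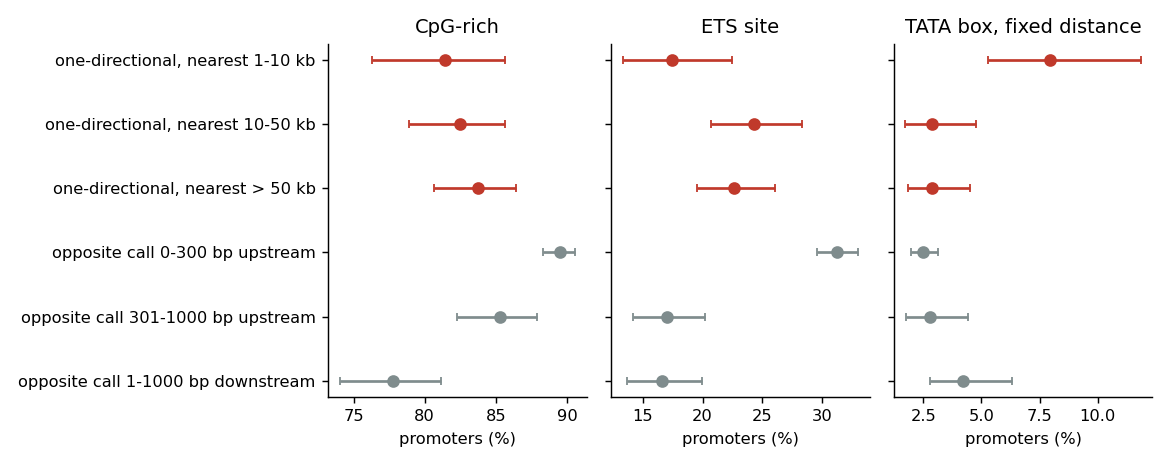
Share of promoters (percent, with 95% Wilson intervals) that were CpG-rich, held an ETS site or held a TATA box at the fixed distance, for 3 classes of one-directional starts in red and 3 classes of two-directional starts in grey. The ETS share was 31.2% where an opposite call lay 0 to 300 bp upstream and at most 24.3% in the other 5 classes. The horizontal axes differ and do not start at 0.

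The surroundings of the starts were compared next. A gene of the opposite strand in the promoter table had its 5' end within 1000 bp of 364 one-directional starts (17.6%, 15.97 to 19.2) and of 2333 two-directional ones (38.7%, 37.5 to 39.9). A called neighbour of this kind makes a start two-directional, so that this difference is tied to the rule and no test is read from it. At the 364 starts such a neighbour is annotated, on either side, without an opposite call within 1000 bp. Another call of the same strand lay within 1000 bp at 215 one-directional starts (10.4%, 9.13 to 11.8) and 1795 two-directional ones (29.8%, 28.6 to 30.9), which was not tested. Gene lengths had medians of 28293 and 28480.5 bp. Distal divergent pairs, a reverse and a forward call at most 300 bp apart and over 1000 bp from every gene end, are an arrangement of active enhancers. A pair lay within 50 kb of 200 one-directional starts (9.64%, 8.45 to 10.99) and 655 two-directional ones (10.9%, 10.1 to 11.7; -1.22 points, -2.67 to 0.323, Fisher's exact test, adjusted p = 0.179). Genes of at least 5 kb held a further call over 1000 bp from the start in 345 of 1864 one-directional cases (18.5%) and 1051 of 5421 two-directional ones (19.4%; -0.879 points, -2.89 to 1.22, adjusted p = 0.514, exact test). Both differences moved with the limit for opposite calls. With 500 bp the difference in further calls was 2.21 points (exact test, adjusted p = 0.0495). With 2000 bp the differences were -2.70 points for pairs and -5.85 points for further calls. That limit bars one-directional starts from having opposite calls at 1001 to 2000 bp, which both counts include, so that no test is read from these values.

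Counted by gene, 2109 of the 8207 coding genes called were one-directional, a background of 25.7%. Gene lists were described by their counts beside this share, with no test. The list shares were not recomputed under other limits for opposite calls. Their intervals make no allowance for the number of lists. The 34 calls that serve more than 1 gene count once for each gene here.

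Erythroid lists lay on both sides of the background. Of 4 called globin genes 2 were one-directional, HBB, adult beta globin, and HBD, minor adult delta globin. HBB was called on its annotated end at position 5227071 of chromosome 11 and HBD 71 bp outside its end at 5234554. Their nearest opposite call was the same one, 17795 bp upstream of HBB and 10312 bp upstream of HBD. The globin genes of a cluster are similar in sequence, which makes these calls less certain. Of 12 called haem genes 2 were one-directional, ALAS2, the red cell form of the rate-limiting enzyme of the pathway, and ALAD, the next enzyme. Their opposite calls lay 2625 and 3774 bp downstream, inside the genes, and the promoter of ALAS2 was CpG-poor with a ratio of 0.156, against 0.699 for ALAD. The other 10 haem genes, FECH and UROD among them, had an opposite call within 439 bp. They include PPOX, where the counted call ran against the gene from its 3' end.

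Iron genes had 6 of 15 one-directional starts (40%, 19.8 to 64.3). ACO1, an iron regulatory protein, was called on its end with the nearest opposite call 167943 bp away. FTL, the ferritin light chain, was called 3 bp outside its end, and an opposite call lay 1298 bp downstream. HMOX1, which degrades haem, was 1 base outside its end with the nearest one at 80969 bp. NCOA4, the receptor that brings ferritin to autophagy, was 49 bp inside at 58071 bp. SLC25A37, the mitochondrial iron importer mitoferrin 1, was 50 bp inside and close to the limit at 1059 bp. Ferritin heavy chain FTH1 and transferrin receptor TFRC were two-directional, with opposite calls 170 and 178 bp upstream.

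Erythroid transcription factors were mostly two-directional at the limit of 1000 bp. Only 2 of 17 called ones were one-directional (11.8%, 3.29 to 34.3), NFE2 and MAFK, and these encode partners that bind DNA together as NF-E2. NFE2 was called 1 base outside its end at position 54301016 of chromosome 12, with the nearest opposite call 1797 bp downstream. MAFK was called on its end at 1530702 of chromosome 7, with the nearest one 26325 bp upstream. GATA1 had an opposite call 665 bp upstream and KLF1 112 bp upstream. Under a limit of 500 bp GATA1 would count as one-directional. So would TCF3 (509 bp), ZBTB7A (555 bp), FOXO3 (633 bp), STAT5A (685 bp) and RUNX1 (834 bp). The low share of this list therefore depends on the limit. The remaining two-directional factors had an opposite call within 283 bp.

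Of 24 called genes in the list of other erythroid genes 6 were one-directional (25%). KIT, the stem cell factor receptor, had its nearest opposite call 593361 bp away and was called 1 base inside its end at position 54657958 of chromosome 4. CA1, carbonic anhydrase 1, was called on its end with the nearest opposite call 5618 bp upstream. GCLM, the modifier subunit of the first enzyme of glutathione synthesis, had its nearest at 30158 bp. PRDX2, a red cell antioxidant enzyme, had an opposite call 1281 bp downstream, and TRIM58, a ubiquitin ligase of late erythropoiesis, had one 1873 bp upstream. The red cell membrane list had 10 of 22 (45.5%, 26.9 to 65.3). Among its first members by alphabet were AQP1, with the nearest opposite call 3373 bp downstream, EPB41, protein 4.1, at 1105 bp, and ERMAP, a blood group protein, at 8338 bp. Under a limit of 2000 bp EPB41 would count as two-directional, so that this share too depends on the limit.

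Among general lists, glycolysis had 8 of 16 one-directional (50%, 28.0 to 72.0). ALDOA and ALDOC, 2 aldolases, were called 94 bp and 1 base outside their ends, with opposite calls 1116 and 5181 bp downstream. GAPDH was 1 base outside with the nearest one at 33775 bp, and HK2, hexokinase 2, had one 1121 bp downstream. Under a limit of 2000 bp ALDOA and HK2 would count as two-directional. RNA polymerase II and pausing genes had 9 of 27 (33.3%, 18.6 to 52.2), with the kinase CDK7 (45402 bp), its partner MNAT1 (248706 bp) and the subunits POLR2C (15295 bp) and POLR2E (8696 bp) named with the distance of their nearest opposite call. Proteasome subunits had 7 of 28 (25%), with PSMD1 at 292012 bp, PSMB5 at 27548 bp, PSMC3 at 17662 bp and PSMB1 at 1072 bp.

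Further lists had shares below the background, and among them the interval of the translation initiation factors alone lay wholly below it. These factors had 5 of 45 (11.1%, 4.84 to 23.5), with EIF2D, EIF3F, EIF3G and EIF3I first by alphabet at 23326, 215304, 10134 and 20830 bp. The aminoacyl-tRNA synthetases AARS1, AARS2, PARS2 and QARS1 were the 4 of 31 (12.9%, 5.13 to 28.9). DNA replication and mitosis had 5 of 30 (16.7%, 7.34 to 33.6), with the licensing factor CDC6, GINS2 and GINS4 of the replicative helicase, and MCM5. Mitochondrial ribosomal proteins had 13 of 70 (18.6%), with MRPL11, MRPL16, MRPL38 and MRPL4 first. Respiratory chain subunits had 13 of 69 (18.8%), with ATP5MJ, COX7C, CYC1 and NDUFA3 first, and COX7C had its nearest opposite call at 649790 bp. Cytosolic ribosomal proteins had 17 of 74 (22.97%, 14.9 to 33.7), with RPL11, RPL17, RPL21 and RPL22 first. Replication-dependent histones had 11 of 55 (20%, 11.6 to 32.4), with the linker histones H1-2, H1-4 and H1-5 and the core histone H2BC10 first. The median opposite distance of the histone members was 2272 bp, against 41627.5 bp for all members. Histone genes lie in clusters, and whether this bears on the distance was not tested. Immediate early and heat shock genes had 3 of 18 (16.7%), the AP-1 subunits FOS, FOSB and FOSL1. FOS and FOSB carried a TATA box at the fixed distance, whereas FOSL1 had no listed sequence covering its call.

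The few called markers of other lineages included members. The counts were 1 of 2 for megakaryocytes, 1 of 1 for granulocytes and monocytes and 1 of 1 for neurons. They were 0 of 1 for lymphoid cells and 0 of 1 for hepatocytes. All are too small to set beside the 25.7% of all coding genes. The members were ITGA2B, a platelet integrin, CEBPA, a myeloid transcription factor, and SYN1, a synaptic vesicle protein, with opposite calls 3998, 47863 and 37420 bp away. Interferon-stimulated genes had 1 of 5, IFI6, called 291 bp outside its end. Olfactory receptor genes had no called start at all, with 0 of 389.

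Genes named ZNF, most of which encode zinc finger proteins, gave the largest number of members of any list, 108 of 292 (37.0%, 31.7 to 42.7). On chromosome 19, which carries large clusters of them, 70 of 140 were one-directional (50%, 41.8 to 58.2), against 38 of 152 on other chromosomes (25%, 18.8 to 32.4). Coding genes outside the list on chromosome 19 had 140 of 520 (26.9%, 23.3 to 30.9). ZNF134, ZNF136 and ZNF14 on chromosome 19 and ZNF138 on chromosome 7 were first by alphabet, with nearest opposite calls at 35307, 174550, 43725 and 212259 bp. By chromosome, the one-directional share of starts ran between 16.8% on chromosome 18 (20 of 119) and 40.3% on chromosome X (91 of 226, 34.1 to 46.8), with 31.7% on chromosome 19 as the second highest. These shares were not tested.

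**Figure D5:**
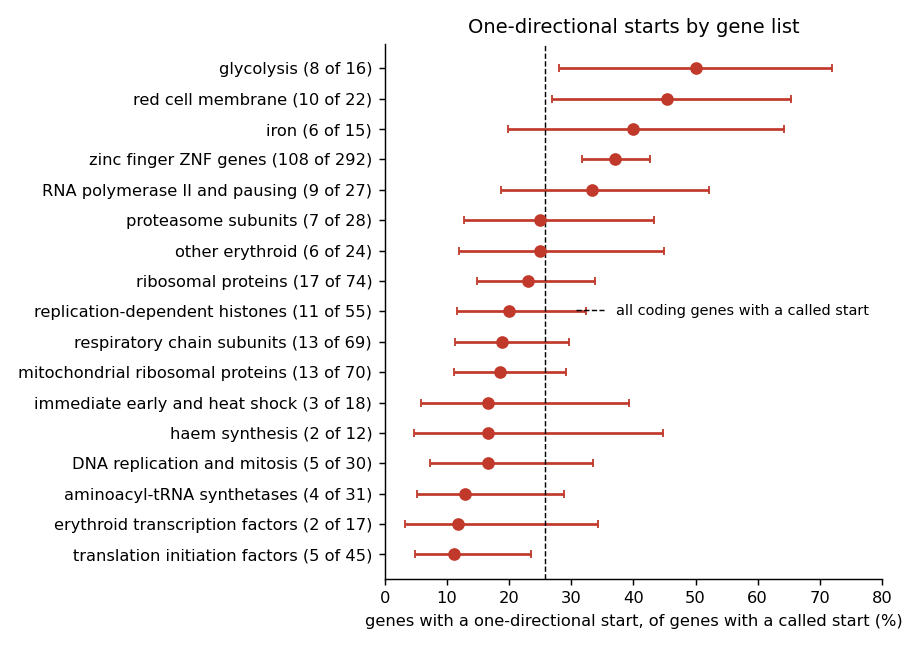
Share of genes with a one-directional start among genes with a called start (percent, with 95% Wilson intervals), for each list with at least 10 called genes, with counts in brackets and a dashed line at the 25.7% of all coding genes. At the limit of 1000 bp, the intervals of glycolysis, red cell membrane and ZNF genes lie above the line and that of translation initiation factors below it.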

How the data were processed

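PRO-cap of nuclear RNA from 2 biological replicates of wild-type HUDEP-2 cells had been reduced to 1 list of calls per strand. Per the submitters' processing notes, the build was hg38 and the tools included deepTools 3.5.4, SAMtools 1.17, BWA 0.7.16a and Picard. How starts were called, at which threshold, and how multi-mapped reads and replicates were handled is not given in the sources used here. Every one of the 26395 calls carries the score 0 as deposited, so depth is unknown. Positions are the end coordinates of the 1-base intervals that the authors deposited, and a 1-base offset of some calls was not tested. The 63 calls outside chromosomes 1 to 22 and X were left out.

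Gene ends came from a RefSeq table of GRCh38.p14 (19821 protein-coding genes; 679 entries on other scaffolds were removed). Strand and 300-base promoters came from a RefSeq table with 15812 of these genes. Where a call served several genes, the nearest end was kept. Shares of one-directional and two-directional starts were compared by two-sided Fisher's exact tests, with Benjamini-Hochberg adjustment over 20 features at 0.05. Starts of neighbouring genes are not independent. Python 3.11.15, pandas 2.3.3 and SciPy 1.17.1 were used, and the steps were tested on simulated data. Named genes were all members of the globin, haem, iron, erythroid transcription factor and other erythroid lists, up to 4 by alphabet of each other list, the 5 with the farthest opposite call and 3 on each side of the limit. Two-directional genes named for contrast, and members named for a TATA box, were chosen after their values were seen. A few genes that this rule names are not reported here. Members, tests and the 26 lists were chosen with earlier results of these data known. Alternatives were other limits, windows, gene ends, motif letters and neighbours.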

Additional observations from a re-analysis of the deposited data

How the results depend on the processing

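The one-directional share of 25.6% was 31.8% with a limit of 500 bp for opposite calls, 24.0% with 2000 bp and 23.9% with every inward call counted. Of 114 recomputed values 91 kept their direction and side of the threshold, or for shares and counts stayed close. Differences below are one-directional minus two-directional, in percentage points. The TATA box at the fixed distance passed at 500 bp (1.64) and anywhere in the promoter (2.34), and was smaller at 2000 bp (0.648) and as TATAAA (0.636). Calls inside the gene turned to 2.21 at 500 bp and were -5.85 at 2000 bp, where distal pairs were -2.70. The 2000 bp rule removes some of the calls counted there, so that these 2 values draw on the rule. The initiator pair turned to 3.11 when read 1 base downstream. Signs also turned for motifs that did not pass, with CCACACCC at -0.249 (500 bp), CACGTG at 0.0502 (2000 bp) and AGATAA at -0.0322 (100 bases before the start). Of 13 motifs 5 passed, 3 did at 2000 bp, and 0 did with 100 bases before and 50 after the start (Fisher's exact test; 4 at an unadjusted p under 0.05). That window is shorter, and the cause of the other changes was not tested. No paired analysis was possible because the lists name no replicate, and for the same reason no replicate could be left out.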

Other observations

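ALAS2, FTL and PRDX2 carried ATAAA without TATAA in the printed stretch upstream of their calls. This was looked at after the sequences were seen. In the window whose first base lies 40 to 20 bases before the call, ATAAA stood at 53 of 1371 one-directional starts (3.87%, 95% Wilson interval 2.97 to 5.02) and 95 of 3887 two-directional ones (2.44%, 2.004 to 2.98). Among starts without TATAA there, it stood at 21 of 1318 (1.59%, 1.04 to 2.42) and 27 of 3780 (0.714%, 0.491 to 1.04). No test was made of these shares.

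CCAAT stood in 39.4%, 42.6% and 40.5% of one-directional promoters with the nearest opposite call at 1 to 10 kb, 10 to 50 kb and beyond 50 kb. It stood in 38.5% of two-directional promoters with the nearest opposite call 0 to 300 bp upstream, in 52.8% (48.8 to 56.7) with it over 300 and up to 1000 bp upstream and in 33.0% (29.1 to 37.1) with it downstream.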
